A study of Mus musculus with 9 samples.

Results

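Transcripts of the voltage-gated potassium, sodium and calcium channels, their close relatives and the pacemaker channels were measured by RNA-seq in mouse hearts at E10.5 after deletion of *Ctcf*, which encodes a DNA-binding protein of chromatin architecture. The genes were chosen by symbol (Kcn followed by a letter, Scn followed by a digit, Cacna, Cacnb or Cacng, and Hcn followed by a digit). This gave 72 of the 14011 genes in the table, out of 141 annotated genes whose symbols fit. The table lists only genes expressed above a low level, and the others were not analysed here. Of the 72 genes, 50 encode pore-forming subunits and 22 auxiliary subunits. Each of 9 libraries was made from a pool of 6 hearts, with 3 pools per genotype. Homozygotes carried *Ctcf* fl/fl and *Nkx2.5-Cre*, and heterozygotes carried *Ctcf* fl/+ and the same driver, which recombines floxed alleles in cardiac progenitors. Controls carried floxed *Ctcf* without Cre, *Ctcf* fl/fl by the sample labels and *Ctcf* fl/+ by the study's text, so that the driver differs too wherever homozygotes or heterozygotes are set against controls. All embryos came from crosses of *Ctcf* fl/+; *Nkx2.5-Cre* with *Ctcf* fl/fl mice on a mixed background.

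The heartbeat depends on channels that open in order. Hyperpolarization-activated channels and T-type calcium channels bring pacemaker cells to threshold, sodium channels drive the fast upstroke, L-type calcium channels carry the current that couples excitation to contraction, and several potassium channels repolarize the membrane and hold it at rest. The embryonic heart beats before its chambers are complete, and its pacemaker, atrial and ventricular cells already differ in the channels they express. Pore-forming subunits make the ion path, whereas auxiliary subunits set how much channel reaches the membrane and how it gates.

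Values are given in CPM, reads scaled to library size by the authors, and fold changes are on the scale of log2(value + 0.5), which understates the change of weakly expressed genes. *Ctcf* itself was 121 ± 0.837 in controls, 97.3 ± 3.26 in heterozygotes and 81.4 ± 2.85 in homozygotes (mean ± SD, n = 3 pools), so its RNA was still detected in pools labelled as deleted. Libraries held between 4294537 and 11629365 reads, of which between 0.0754% and 0.125% came from the channel genes. The table lists only genes that reached a value of 1 in 3 or more libraries. Of the channel genes, 54 reached it in all 9 libraries and the other 18 in 4 to 8, and 33 averaged 5 or more. Nothing in the labels says how the pools were spread over litters, and p-values measure the spread between these pools. In whole hearts, fewer cells of a type and less RNA per cell cannot be told apart. The 10 cardiomyocyte markers examined were all present in controls, from 75.4 ± 6 for *Nkx2-5* to 5617 ± 311 for *Actc1*, and their summed level ran from 18893 to 21629 in controls, from 21228.5 to 24716.5 in heterozygotes and from 17715 to 21179 in homozygotes.

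Among the channel genes, levels per kb of exon could be compared between genes. In controls *Kcnj5*, a subunit of the atrial acetylcholine-activated potassium channel, was at 23.9 CPM per kb. *Cacna2d2*, an auxiliary calcium channel subunit, was at 23.5. The control libraries of these genes overlapped, so their order was not resolved. *Kcng2*, whose product modifies other potassium channels, *Kcnh2*, which carries the rapid delayed rectifier, and *Kcne1l* (also *Kcne5*), a small auxiliary subunit, followed at 17.4, 16.3 and 15.9. The *Kcng2* value rests on an annotated exonic length of only 705 bases. A group near 9 came next, with *Cacna1h* (T-type calcium) at 9.36, *Kcnn4* at 8.84 and *Kcnk3* (a background potassium channel) at 8.83, and the control libraries of these genes overlapped. The pacemaker gene *Hcn4* was at 7.34. The L-type gene *Cacna1c* was at 6.8 and its relative *Cacna1d* at 2.83. A few genes made up most of the signal in several classes. *Hcn4* was 90.8% of the HCN signal in controls and *Cacna2d2* was 83.4% of the alpha2delta signal.

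**Figure D1:**
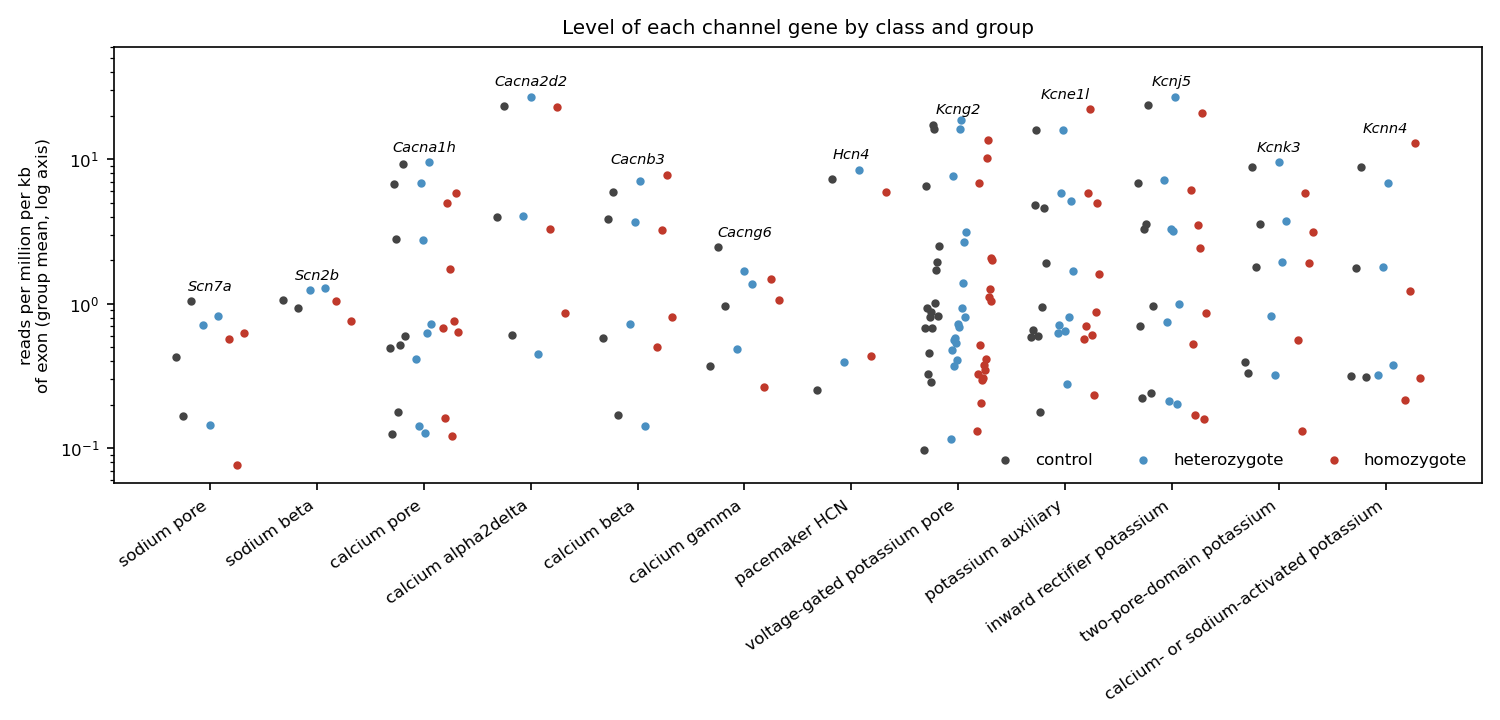
Level of 68 of the 72 channel genes (points, group means of 3 libraries) in CPM per kb of exon on a log axis, by channel class and genotype. The gene named in each class is the one with the highest control level among those shown. *Kcnj5* and *Cacna2d2* stand highest in controls and heterozygotes, whereas in homozygotes *Kcne1l* lies above *Kcnj5*. The red homozygote points of *Cacna1h* and *Kcnk3* lie below those of both other groups.

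Homozygous hearts had less RNA of several pore-forming channel genes, among them the calcium channel genes *Cacna1d* and *Cacna1h*, and more of the calcium channel subunit gene *Cacnb4*. The background channel gene *Kcnk3* was lower too, in calls held by 16 of 20 alternative analyses against controls and 17 of 20 against heterozygotes. Against controls, 14 channel genes passed the test (limma, Benjamini-Hochberg adjusted p under 0.05 over all 14011 genes), which is 19.4% of 72 against 15.2% of all genes. This excess rests on single libraries. Without control 3 it turned, with 4 channel genes (5.56%) against 7.49% of all genes, and without homozygote 3 there were 7 (9.72%) against 9.04%. Of the 14 genes that passed with all libraries, 10 fell, 13.9% of the channel genes against 8.03% of all genes, and 4 rose, 5.56% against 7.19%. Among those that fell were *Scn7a*, *Cacna1d*, *Cacna1h*, *Kcnd2*, *Kcnf1*, *Kcng2*, *Kcna6*, *Kcnj3* and *Kcnk3*, and those that rose were *Cacnb4*, *Cacnb3*, *Kcnn4* and *Kcne1l*. Against heterozygotes, which carry the driver too, 13 passed (18.1%, against 13.6% of all genes), with 10 lower (13.9%, against 6.7%) and 3 higher (4.17%, against 6.87%). Without heterozygote 3 this was 7 (9.72%, against 8.73%). *Cacna1d*, *Cacna1h*, *Kcnk3*, *Kcnf1* and *Kcng2* were among those that fell and *Cacnb4*, *Kcnn4* and *Kcne1l* rose in both comparisons, which share the homozygous libraries. *Hcn4*, *Kcnh2*, *Kcnj5* and *Kcnq5* fell only against heterozygotes, although a difference between the comparisons was not tested. All the genes that fell encode pore-forming subunits, 10 of 50 in each comparison, against 0 of 22 auxiliary genes (a description, with no test of the classes), and 3 of the 4 genes that rose against controls are auxiliary. Among the 33 channel genes that averaged 5 or more, 7 fell against controls (21.2%, against 9.37% of the 11128 genes at that level) and 3 rose (9.09%, against 8.35%). Against heterozygotes 9 of them fell (27.3%, against 7.79%) and 2 rose (6.06%, against 8.05%).

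The median log2 fold change of the 72 genes was -0.15 against controls and -0.22 against heterozygotes, with medians of all genes of -0.0011 and -0.0045. Without control 3 the median of the 72 genes against controls was -0.0124. Pore-forming genes had a median of -0.27 and auxiliary genes of -0.02 against controls. Of the 34 genes listed for the cardiac action potential, 30 were in the table, and 6 fell against controls (all genes 8.03%) and 7 against heterozygotes (all genes 6.7%), with 0 higher in either (all genes 7.19% and 6.87%). Of the 10 cardiomyocyte markers, *Actn2* and *Nkx2-5* fell against controls and *Myl4* rose. *Nkx2-5*, the gene the driver is named for, was at 75.4 ± 6 in controls and 57 ± 2.87 in heterozygotes, without overlap. That difference did not pass (log2 fold change -0.40, adjusted p = 0.0974). Against heterozygotes *Myh6*, *Myh7*, *Actn2* and *Nkx2-5* fell and 0 rose, with a median log2 fold change of -0.32 over the 10, and the part of the cardiomyocyte share in the channel results was not tested. *Hcn2*, *Kcne3* and *Kcnip2* of that list were among those not analysed here. Of the 72 genes, 20 had all homozygous libraries below all control libraries (27.8%, against 16.5% of all genes) and 5 had them above (6.94%, against 16.6%). Against heterozygotes 19 had them below (26.4%, against 15.5%) and 5 above (6.94%, against 15.3%).

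**Figure D2:**
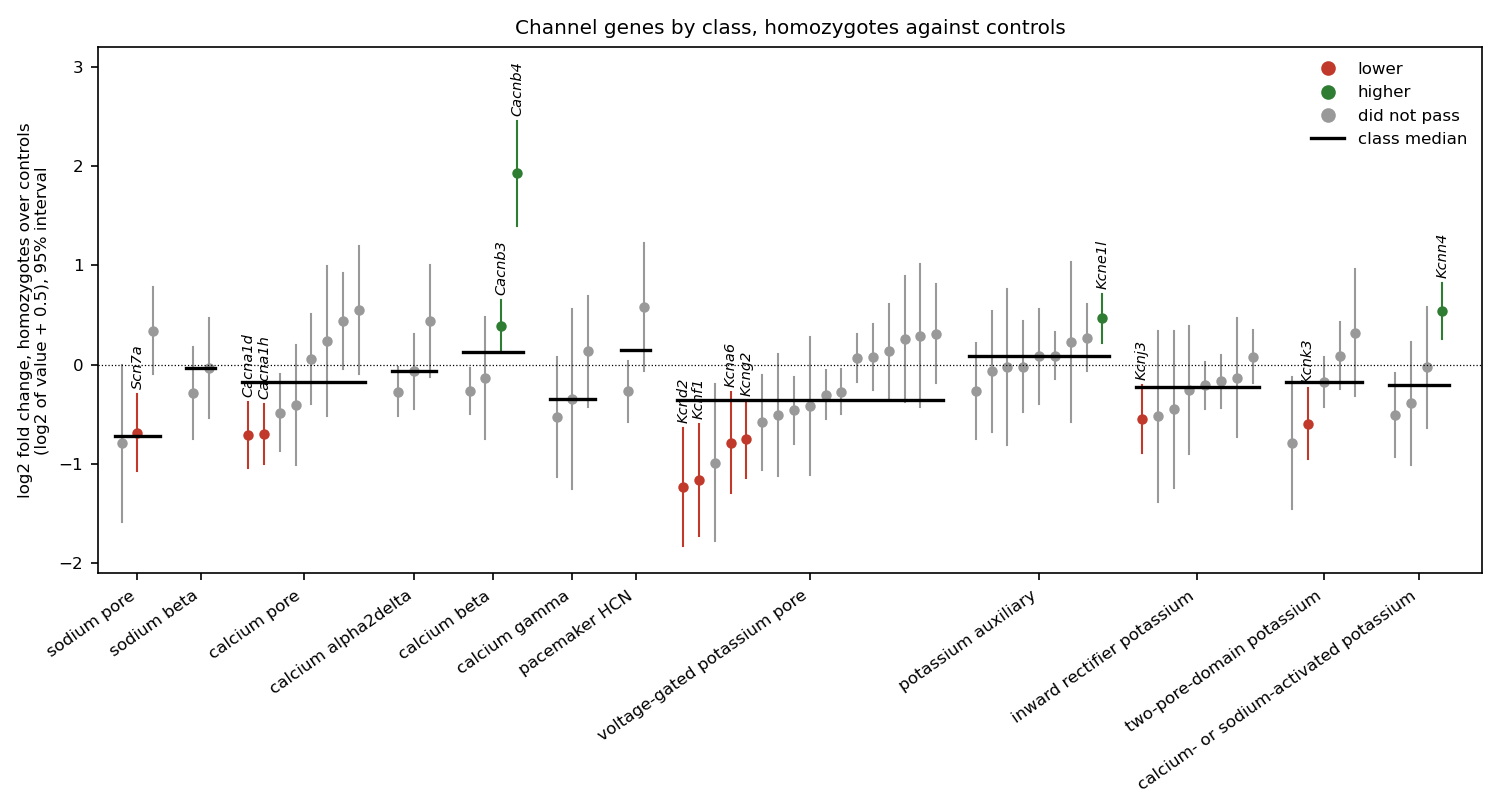
Log2 fold change of homozygotes over controls (points, with unadjusted 95% intervals from limma) for 68 of the 72 channel genes by class, red where lower and green where higher at an adjusted p under 0.05, with medians over all genes of each class as black bars. All 9 red points are pore-forming genes, and the highest point is *Cacnb4* at 1.93.

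The promoters of genes that moved in both comparisons are shown because they are the sequences next to the affected transcripts, and CTCF is the deleted factor. RefSeq promoter windows (250 bases before to 50 after the start, build GRCm38.p6, most upstream entry per gene) existed for 52 of the 72 genes. *Cacna1h*, *Kcnk3* and *Kcng2* have no entry. Sequences run 5′ to 3′ on the strand of the gene, and capitals mark AGGGGGC or its reverse complement GCCCCCT, letters from the core of the CTCF binding motif, which were searched on both strands.
*Cacnb4*, chr2:52676094-52676393, minus strand: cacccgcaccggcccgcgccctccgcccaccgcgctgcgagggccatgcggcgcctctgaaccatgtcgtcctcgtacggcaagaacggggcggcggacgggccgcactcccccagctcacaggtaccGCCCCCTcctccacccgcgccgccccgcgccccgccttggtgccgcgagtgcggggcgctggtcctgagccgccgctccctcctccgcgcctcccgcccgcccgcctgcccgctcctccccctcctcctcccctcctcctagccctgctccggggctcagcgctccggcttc
*Kcne1l*, chrX:142306149-142306448, minus strand: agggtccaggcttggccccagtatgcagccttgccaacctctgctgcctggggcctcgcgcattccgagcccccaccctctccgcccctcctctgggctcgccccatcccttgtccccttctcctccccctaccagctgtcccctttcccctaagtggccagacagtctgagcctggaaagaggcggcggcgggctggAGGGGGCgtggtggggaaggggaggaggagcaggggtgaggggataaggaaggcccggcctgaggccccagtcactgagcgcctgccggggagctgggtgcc
*Kcnn4*, chr7:24370013-24370312, plus strand: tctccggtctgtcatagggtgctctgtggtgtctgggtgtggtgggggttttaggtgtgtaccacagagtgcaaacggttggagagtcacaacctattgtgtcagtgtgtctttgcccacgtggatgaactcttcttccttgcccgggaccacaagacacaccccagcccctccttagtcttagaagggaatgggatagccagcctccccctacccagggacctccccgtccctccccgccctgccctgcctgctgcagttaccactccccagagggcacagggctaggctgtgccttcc
*Cacna1d*, chr14:30491107-30491406, minus strand: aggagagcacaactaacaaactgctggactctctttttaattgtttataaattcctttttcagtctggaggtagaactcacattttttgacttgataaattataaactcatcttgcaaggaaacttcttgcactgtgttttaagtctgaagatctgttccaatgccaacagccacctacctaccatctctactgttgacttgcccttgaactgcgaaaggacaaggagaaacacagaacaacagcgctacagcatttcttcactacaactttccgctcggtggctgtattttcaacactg
*Kcnf1*, chr12:17176839-17177138, minus strand: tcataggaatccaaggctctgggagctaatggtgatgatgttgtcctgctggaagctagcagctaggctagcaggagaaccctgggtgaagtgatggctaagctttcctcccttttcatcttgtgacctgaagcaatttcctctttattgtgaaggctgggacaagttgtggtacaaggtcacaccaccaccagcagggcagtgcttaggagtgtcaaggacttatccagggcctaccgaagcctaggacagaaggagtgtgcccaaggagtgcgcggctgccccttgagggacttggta
The letters occur in the window of *Cacnb4*, starting 122 bases before the transcript start of the entry used. They also occur in that of *Kcne1l*, starting 52 bases before its start, and not in the other windows shown. *Cacnb4* has 3 entries and *Cacna1d* has 2, and which start these hearts use was not tested. The marked letters occur in 11 of 75 windows of channel genes (14.7%) and in 10.6% of all 32851 windows. The windows of *Cacnb4* and *Kcne1l* were rich in G and C (78.3% and 69.7%), that of *Cacna1d* was at 40.3%, and the median was 60.3% over channel genes and 52.7% over all windows. CTCF binding itself was not analysed here.

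**Figure D3:**
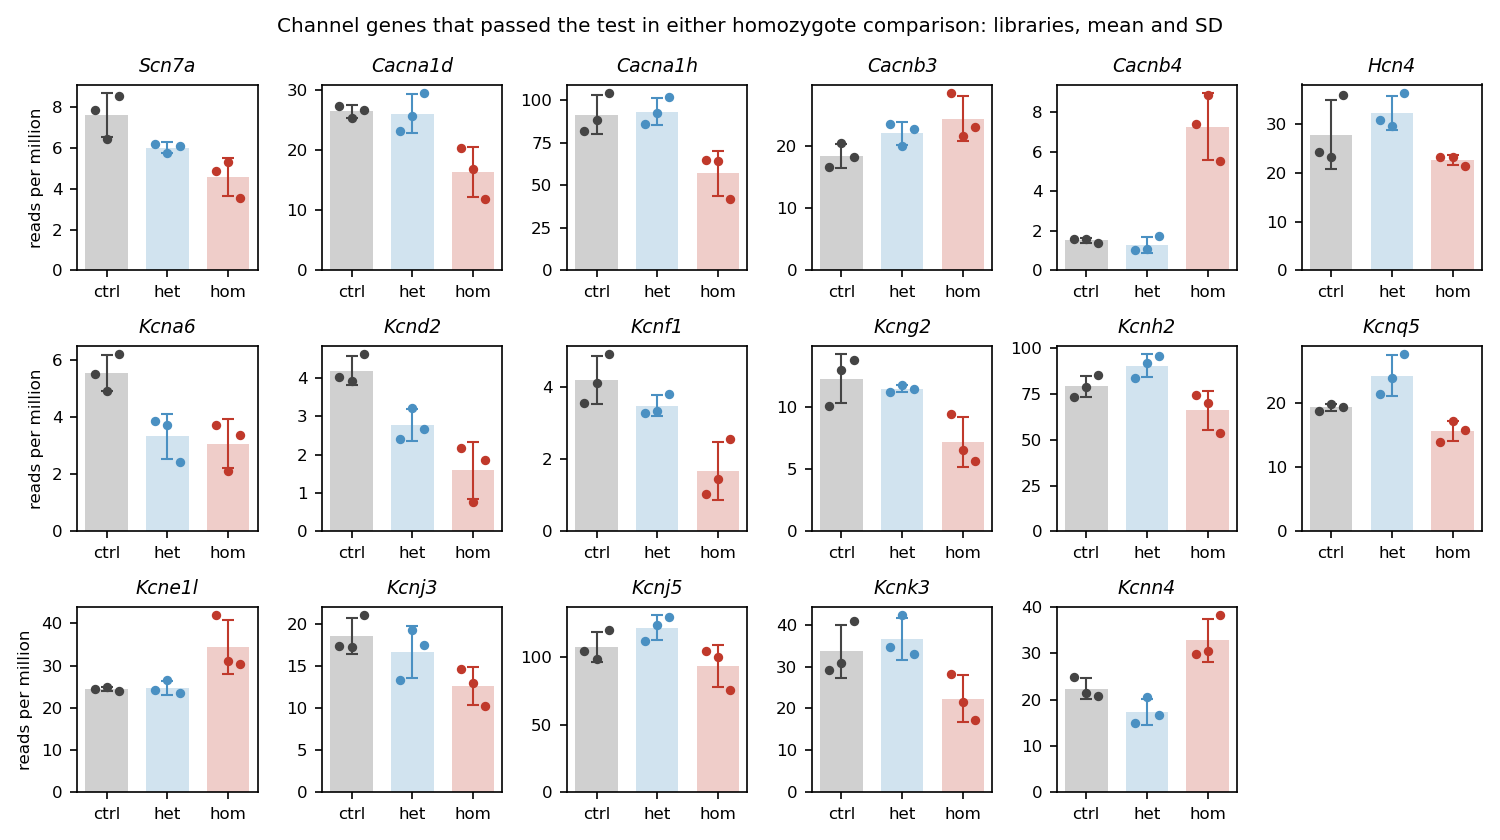
Values in CPM of 17 of the 18 channel genes that passed the test in at least one homozygote comparison, for controls (ctrl), heterozygotes (het) and homozygotes (hom); points are libraries, bars are means and error bars are SD (n = 3). *Cacnb4* lies between 5.54 and 8.89 in homozygotes and between 1.03 and 1.73 elsewhere, and *Cacna1h* lies between 41.9 and 64.8 in homozygotes and between 82.1 and 104 elsewhere.

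Among the sodium channel pores, *Scn7a*, whose product senses extracellular sodium and is not gated by voltage in the usual way, was 7.62 ± 1.07 in controls, 6.03 ± 0.255 in heterozygotes and 4.59 ± 0.922 in homozygotes and fell against controls (log2 fold change -0.68, SE 0.18, adjusted p = 0.0224), a call lost without control 1 (adjusted p = 0.065), control 3 (0.101) or homozygote 3 (0.0932). *Scn10a*, best known from sensory neurons, had values of 2.62, 3.2 and 2.41 in the controls, 4.76, 4.1 and 4.73 in the heterozygotes and 4.43, 3.47 and 3.02 in the homozygotes. It did not pass against controls (0.34, adjusted p = 0.289, unadjusted 95% interval -0.10 to 0.78). The skeletal muscle gene *Scn4a* had the lowest estimate of the class (-0.79) on few reads (0 to 12 per library, with none in homozygote 1) and did not pass (adjusted p = 0.17).

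Auxiliary sodium channel genes did not pass in either comparison. *Scn4b*, a beta subunit gene 8.4 kb from *Scn2b*, was 5.84, 4.73 and 8.65 in heterozygotes and 3.52, 4.32 and 3.38 in homozygotes, with no overlap, and missed the threshold against heterozygotes (-0.67, adjusted p = 0.0534). It passed without heterozygote 2 (adjusted p = 0.032) and among genes with a value of at least 1 in all 9 libraries (0.0391).

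Among calcium channel pores, the L-type gene *Cacna1d* and the T-type gene *Cacna1h* fell. *Cacna1d* (chr14:30853135-31304342, NCBIM37) encodes an L-type channel that opens at more negative voltages than that of *Cacna1c* and serves pacemaker and atrial cells. It had values of 27.3, 25.3 and 26.7 in the controls, 23.1, 25.7 and 29.4 in the heterozygotes and 20.3, 16.8 and 11.9 in the homozygotes. The homozygous libraries lay below all others, at 62% of controls (log2 fold change -0.71, SE 0.16, adjusted p = 0.00921) and 62.8% of heterozygotes (log2 fold change -0.68, SE 0.16, adjusted p = 0.0123). The gene *Dcp1a* overlaps it on the other strand and was 40.1 ± 1.30 in controls and 39.7 ± 2.38 in homozygotes; whether counting used strand is not given in the sources used here. *Cacna1h* (chr17:25511230-25570728, NCBIM37) had values of 82.1, 88.6 and 104 in the controls, 86.2, 92.3 and 102 in the heterozygotes and 64.8, 64.4 and 41.9 in the homozygotes. Its homozygous libraries also lay below all others, at 62.3% of controls (log2 fold change -0.70, SE 0.14, adjusted p = 0.00568) and 61.1% of heterozygotes (log2 fold change -0.73, SE 0.14, adjusted p = 0.00477). The calls of *Cacna1h* and the call of *Cacna1d* against controls held in all 20 alternative analyses, and *Cacna1d* against heterozygotes was lost without heterozygote 3 (adjusted p = 0.0536), as well as with limma without the trend (0.0553).

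*Cacna1c*, the main L-type pore of ventricular muscle, had values of 53.4, 59.1 and 67.3 in the controls, 48.4, 66.8 and 66.8 in the heterozygotes and 50.5, 51 and 29.8 in the homozygotes. Homozygotes 1 and 2 lay just below the lowest control and inside the heterozygous range, and homozygote 3 lay well below. It missed the threshold against controls (-0.48, adjusted p = 0.0873, interval -0.87 to -0.10) and against heterozygotes (-0.49, adjusted p = 0.0896), and passed against heterozygotes without heterozygote 1 (adjusted p = 0.0471). The other T-type gene, *Cacna1g*, had the highest estimate of the class, with 5.17 ± 1.74 in controls and 7.64 ± 1.24 in homozygotes, and did not pass (0.55, adjusted p = 0.238, interval -0.09 to 1.19). *Cacna1a*, *Cacna1b* and *Cacna1e*, known from neurons, and *Cacna1s*, known from skeletal muscle, had control means between 1.25 ± 0.283 (*Cacna1b*) and 5.64 ± 1.62 (*Cacna1a*) and did not pass.

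*Cacnb4* (chr2:52283845-52532350, NCBIM37), a calcium channel beta subunit best known from brain, had the largest change of any channel gene. Its values were 1.57, 1.58 and 1.39 in the controls, 1.03, 1.07 and 1.73 in the heterozygotes and 7.38, 8.89 and 5.54 in the homozygotes, from 7 to 61 reads per library. The homozygous mean was 4.81 times the control mean (log2 fold change 1.93, SE 0.25, adjusted p = 0.000269) and 5.69 times the heterozygous mean (log2 fold change 2.13, SE 0.25, adjusted p = 0.000165), and both calls held in all 19 alternatives in which the gene was tested. *A430018G15Rik*, which overlaps it on the other strand, was at 0.468 ± 0.226 in controls and 0.787 ± 0.797 in homozygotes and did not pass. The neural markers, 7 of 10 of them in the table, had a summed level from 28.6 to 35.9 in controls, 26.2 to 36.3 in heterozygotes and 41.9 to 44.4 in homozygotes, and 1 of them rose, *Tubb3*, from 15.1 ± 2.29 in controls to 23.5 ± 1.74 in homozygotes. *Elavl3*, *Elavl4* and *Dcx* had estimates of -0.24, -0.48 and -0.03 against controls, and the part of these markers in the *Cacnb4* result was not tested. Even in homozygotes *Cacnb4* was at 0.813 per kb, below *Cacnb2*, the main beta subunit of heart muscle, at 3.23, and *Cacnb3* at 7.82. The order of the latter pair depends on the length used, since in controls *Cacnb2* was at 3.88 and *Cacnb3* at 5.91 per kb of all exons, but at 9.08 and 6.54 per kb of the longest transcript. *Cacnb3*, a beta subunit of neurons and smooth muscle, was 18.4 ± 1.96 in controls, 22.1 ± 1.84 in heterozygotes and 24.4 ± 3.64 in homozygotes and rose against controls (log2 fold change 0.39, SE 0.12, adjusted p = 0.0456). Homozygous and heterozygous libraries overlapped, and that difference did not pass (0.13, adjusted p = 0.516, interval -0.13 to 0.40). The call against controls was held by 9 of 20 alternatives and was lost without control 1 (adjusted p = 0.148), control 3 (0.121), heterozygote 1 (0.0529), heterozygote 3 (0.0558), homozygote 1 (0.154) or homozygote 3 (0.0784), as well as with only the groups compared (0.0607), limma without the trend (0.0872) or limma-voom (0.0561). *Cacnb2* was 36.3, 35.4 and 35.7 in controls and 28.3, 33.9 and 27.2 in homozygotes, with no overlap, and missed the threshold (-0.27, adjusted p = 0.113), except without homozygote 2 (adjusted p = 0.0473). *Cacnb1*, a beta subunit of skeletal muscle, did not pass (-0.14, adjusted p = 0.797).

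The alpha2delta and gamma subunits, which modulate trafficking and gating, did not pass in either comparison. *Cacna2d2* had values of 133, 122 and 171 in the controls, 146, 169 and 176 in the heterozygotes and 149, 172 and 94 in the homozygotes. Homozygotes 1 and 2 lay within the range of the other groups and homozygote 3 below it (log2 interval -0.45 to 0.31 against controls). *Cacna2d1* was 33.3 ± 2.23 in controls and 27.7 ± 4.06 in homozygotes (-0.27, adjusted p = 0.132). *Cacna2d3*, at 1.66 ± 0.32 in heterozygotes and 3.21 ± 0.689 in homozygotes, missed the threshold (0.78, adjusted p = 0.0662) and passed with limma-voom on whole reads (adjusted p = 0.0389) and among genes with a value of at least 1 in all 9 libraries (0.046). *Cacng6*, *Cacng7* and *Cacng4* had control means of at most 2.13 ± 0.543. *Cacng6* and *Cacng7*, 57.6 kb apart, had estimates of -0.52 and 0.13 against controls (intervals -1.13 to 0.08 and -0.43 to 0.69).

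Of the pacemaker channels, *Hcn4*, which carries most of the pacemaker current of the embryonic heart, had values of 24.4, 23.2 and 36 in the controls, 30.9, 29.7 and 36.3 in the heterozygotes and 23.3, 23.3 and 21.4 in the homozygotes. Homozygotes lay below all heterozygotes but overlapped controls, among which control 3 was high. It fell against heterozygotes (log2 fold change -0.50, SE 0.14, adjusted p = 0.0329) and missed the threshold against controls (-0.27, adjusted p = 0.231, interval -0.57 to 0.04). The call against heterozygotes was lost without heterozygote 1 (adjusted p = 0.0632), heterozygote 3 (0.122), homozygote 1 (0.0594), homozygote 2 (0.0635) or homozygote 3 (0.105), as well as with limma without the trend (0.0977). *Hcn3* was 1.05 ± 0.341 in controls and 1.81 ± 0.439 in homozygotes and did not pass (0.59, adjusted p = 0.213). *Pklr*, a red cell enzyme gene that overlaps *Hcn3* on the other strand, was 112 ± 14.2 in controls and 200 ± 18.1 in homozygotes and rose (adjusted p = 0.0019), and the share of *Hcn3* reads that could come from it was not tested. Of the sinus node markers *Shox2*, *Isl1*, *Tbx3* and *Bmp4*, 0 passed against controls, and *Tbx3* fell against heterozygotes (-0.45, adjusted p = 0.0445).

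Voltage-gated potassium pores were the largest class, with 18 genes and a median of -0.36 against controls and -0.40 against heterozygotes. Removal of a trend with gene length moved the first median to -0.22. Only 6 of the 18 genes averaged 5 or more, and the median of their control means was 3.94 over the class. Against controls 4 of the 18 fell (8.03% of all genes did), and against heterozygotes 4 fell (6.7% of all genes). *Kcnd2* (chr6:21165503-21679805, NCBIM37), a pore of the fast transient outward current, had values of 4.02, 3.91 and 4.6 in the controls, 2.4, 3.22 and 2.65 in the heterozygotes and 2.16, 0.762 and 1.85 in the homozygotes, from 4 to 38 reads. The groups did not overlap. Homozygotes were at 38% of controls (log2 fold change -1.23, SE 0.28, adjusted p = 0.00999), a call held in all 18 alternatives that could test it. Neither the difference from heterozygotes (-0.70, adjusted p = 0.112) nor that between heterozygotes and controls (-0.53, adjusted p = 0.714) passed. Its relative *Kcnd3* did not pass (0.31, adjusted p = 0.407, interval -0.19 to 0.81).

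*Kcnf1* and *Kcng2* encode silent subunits, counted here as pore-forming, which form no channel alone and modify other potassium channels. *Kcnf1* had values of 3.55, 4.12 and 4.9 in the controls, 3.29, 3.34 and 3.81 in the heterozygotes and 1.02, 1.44 and 2.57 in the homozygotes, from 4 to 40 reads. It fell to 40.0% of controls (log2 fold change -1.16, SE 0.26, adjusted p = 0.00999), a call lost without control 3 (adjusted p = 0.0529), and to 48.2% of heterozygotes (log2 fold change -0.93, SE 0.26, adjusted p = 0.0313), a call held by 10 of 19 alternatives and lost without heterozygote 1 (adjusted p = 0.0684), heterozygote 2 (0.0714), heterozygote 3 (0.0913), homozygote 1 (0.0905) or homozygote 2 (0.078), as well as with only the groups compared (0.0588), limma without the trend (0.0506), edgeR (0.0808) or limma-voom (0.0777). *Kcng2* had values of 10.1, 13 and 13.8 in the controls, 11.2, 11.8 and 11.4 in the heterozygotes and 9.42, 6.52 and 5.63 in the homozygotes. Its homozygous libraries lay below all others, at 58.5% of controls (log2 fold change -0.75, SE 0.18, adjusted p = 0.0131) and 62.6% of heterozygotes (log2 fold change -0.67, SE 0.18, adjusted p = 0.0249). The first call was lost without control 3 (adjusted p = 0.0666) or homozygote 3 (0.0572). The second was lost without heterozygote 1 (adjusted p = 0.0598), heterozygote 2 (0.0718), heterozygote 3 (0.0635), homozygote 2 (0.0716) or homozygote 3 (0.105), as well as with limma without the trend (0.0606). *Kcng1* had 3.32, 2.39 and 3.44 in controls and 1.7, 2.12 and 1.76 in homozygotes, without overlap, and missed the threshold in both comparisons (adjusted p = 0.094 and 0.0831).

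Among the delayed rectifiers, *Kcnh2* fell against heterozygotes. It had values of 73.3, 78.9 and 85 in the controls, 83.6, 91.9 and 95.6 in the heterozygotes and 74.1, 70.0 and 53.7 in the homozygotes. The difference (log2 fold change -0.46, SE 0.10, adjusted p = 0.0117) was a call kept without any one library and lost with limma without the trend (adjusted p = 0.0627), whereas the difference from controls missed the threshold (-0.27, adjusted p = 0.0993), except without homozygote 1 (adjusted p = 0.0446). Of its relatives, *Kcnh7* was 26.1 ± 2.47 in controls and 19.2 ± 4.75 in homozygotes (-0.46, adjusted p = 0.0663) and *Kcnh6* was 3.69 ± 0.575 and 4.1 ± 0.345 (0.14, adjusted p = 0.72). *Kcnq1*, the pore of the slow delayed rectifier, had values of 5.76, 6.15 and 6.07 in the controls, 8.19, 8.52 and 7.96 in the heterozygotes and 7.15, 6.69 and 5.36 in the homozygotes. Heterozygotes lay above all other libraries, and neither homozygote comparison passed (0.08, adjusted p = 0.779 against controls and -0.35, adjusted p = 0.157 against heterozygotes). *Kcnq1ot1*, the antisense RNA of that locus, was not analysed here. *Kcnq5* (chr1:21388484-21952023, NCBIM37), a channel of the slow neuronal M-current, had values of 18.7, 19.9 and 19.4 in the controls, 21.3, 23.9 and 27.6 in the heterozygotes and 14, 17.2 and 15.7 in the homozygotes. It had the smallest adjusted p of the voltage-gated potassium pores against heterozygotes (log2 fold change -0.62, SE 0.12, adjusted p = 0.00386), in a call held in all 20 alternatives, while the difference from controls missed the threshold (-0.30, adjusted p = 0.0948). *Gm7658* overlaps *Kcnq5* on the same strand, at 1.68 ± 0.781 in controls and 1.73 ± 1.37 in homozygotes.

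Among the Shaker-related pores, *Kcna6* had 5.53, 4.93 and 6.21 in controls, 3.87, 3.72 and 2.42 in heterozygotes and 3.75, 2.12 and 3.38 in homozygotes. Both groups with the driver lay below the controls and overlapped each other. It fell in homozygotes against controls (log2 fold change -0.78, SE 0.24, adjusted p = 0.0399), a call held by 11 of 19 alternatives and lost without control 1 (adjusted p = 0.0888), control 2 (0.0638), control 3 (0.144), homozygote 2 (0.131) or homozygote 3 (0.0664), as well as with limma without the trend (0.0591). *Kcna5*, the pore of the ultrarapid atrial current, lies on the same chromosome with *Kcna1* between *Kcna5* and *Kcna6* and was 19.7 ± 1.73 in controls and 20.7 ± 2.15 in homozygotes (0.07, adjusted p = 0.748, interval -0.18 to 0.31). *Kcna4* had an estimate of -0.99 and did not pass (adjusted p = 0.089).

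Of 9 potassium channel auxiliary genes 1 rose in each comparison (7.19% of all genes rose against controls and 6.87% against heterozygotes), *Kcne1l* (chrX:138739295-138740837, NCBIM37), whose product dampens the *Kcnq1* current when bound to it. Its values were 24.5, 25 and 24 in the controls, 24.2, 26.6 and 23.4 in the heterozygotes and 41.9, 31.1 and 30.5 in the homozygotes. The homozygous libraries lay above all others, at 141% of controls (log2 fold change 0.47, SE 0.11, adjusted p = 0.0146) and 139.5% of heterozygotes (log2 fold change 0.46, SE 0.11, adjusted p = 0.0182). Against controls, the *Kcne1l* call was lost without control 3 (adjusted p = 0.0558), as well as with limma without the trend (0.0514). Against heterozygotes, it was lost without heterozygote 1 (adjusted p = 0.0544) or heterozygote 3 (0.0635), as well as with limma without the trend (0.0577). *Kcne1*, the partner of *Kcnq1* in the slow delayed rectifier, was 15.4 ± 3.31 in controls and 18.6 ± 2.64 in homozygotes (0.27, adjusted p = 0.265, interval -0.06 to 0.61), and its neighbor *Kcne2* was at 1.06 ± 0.185 and 1.08 ± 0.446. *Kcnmb1*, a beta subunit of the large-conductance calcium-activated channel, was 19.4 ± 0.718 and 20.8 ± 2.57 (interval -0.15 to 0.33). *Kcnip1* overlaps it on the other strand and was at 1.1 ± 0.13 in controls. *Kcnab1*, a cytosolic beta subunit, had an estimate of -0.02, and *Kcnmb4* had the lowest of the class, -0.26 (adjusted p = 0.482).

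Of the inward rectifiers, which hold the resting potential, 7 of 8 had negative estimates against controls (7025 of 14011 among all genes) and 1 fell (8.03% of all genes). *Kcnj3* and *Kcnj5* encode the subunits of the channel through which acetylcholine slows the heart. *Kcnj3* had values of 17.4, 17.2 and 21 in the controls, 13.3, 19.2 and 17.4 in the heterozygotes and 14.6, 12.9 and 10.2 in the homozygotes and fell against controls (log2 fold change -0.55, SE 0.16, adjusted p = 0.0334), a call held by 12 of 20 alternatives and lost without control 1 (adjusted p = 0.054), control 2 (0.0559), control 3 (0.14), homozygote 2 (0.0594) or homozygote 3 (0.132), as well as with limma without the trend (0.081). *Kcnj5*, the more abundant per kb, had values of 104, 98.5 and 119.9 in the controls, 112, 124 and 129.8 in the heterozygotes and 105, 101 and 76.1 in the homozygotes and fell against heterozygotes (log2 fold change -0.39, SE 0.11, adjusted p = 0.0325), a call held by 15 of 20 alternatives and lost without heterozygote 2 (adjusted p = 0.0872), heterozygote 3 (0.113) or homozygote 3 (0.116), as well as with limma without the trend (0.117). For each of the pair, homozygote 3 was the lowest library. *Kcnj2*, the main pore of the ventricular resting current, was 17.2, 17.5 and 18.9 in controls and 17.4, 22.6 and 17.3 in homozygotes and had the highest estimate of the class (0.08, adjusted p = 0.709, interval -0.19 to 0.35). The pores of the ATP-sensitive channel, *Kcnj11* and *Kcnj8*, did not pass (-0.17, adjusted p = 0.409, and -0.13, adjusted p = 0.801). *Kcnj12* did not pass against heterozygotes (-0.56, adjusted p = 0.357), except without homozygote 1 (adjusted p = 0.0466).

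Background channels were represented by 5 genes. *Kcnk3*, an acid-sensitive leak channel of atrial muscle, had values of 29.3, 30.8 and 40.9 in the controls, 34.6, 42.2 and 32.9 in the heterozygotes and 28.3, 21.6 and 17.2 in the homozygotes. Its homozygous libraries lay below all others, homozygote 3 lowest, at 66.4% of controls (log2 fold change -0.59, SE 0.17, adjusted p = 0.0291) and 61.1% of heterozygotes (log2 fold change -0.72, SE 0.17, adjusted p = 0.0131). Against controls, the *Kcnk3* call was lost without control 3 (adjusted p = 0.136), homozygote 2 (0.0695) or homozygote 3 (0.116), as well as with limma without the trend (0.0999). Against heterozygotes, it was lost without heterozygote 2 (adjusted p = 0.0546) or homozygote 3 (0.0543), as well as with limma without the trend (0.0656). *Kcnk2*, a stretch-sensitive channel, was 0.873, 1.07 and 1.68 in controls and 0.341, 0.423 and 0.675 in homozygotes, without overlap, on 1 to 11 reads, and missed the threshold (-0.79, adjusted p = 0.103), except with limma without the trend (adjusted p = 0.0396). *Kcnk1* had the highest estimate, 0.32 (adjusted p = 0.516). *Kcnk6* and *Kcnk5* were near 14.8 ± 0.912 and 6.02 ± 0.884 in controls, with estimates of -0.17 and 0.09.

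Calcium-activated *Kcnn4* (chr7:25155282-25170228, NCBIM37), the potassium channel of red blood cells, had values of 24.9, 21.5 and 20.7 in the controls, 15, 20.5 and 16.7 in the heterozygotes and 29.9, 30.4 and 38.1 in the homozygotes. All homozygous libraries were above all others, at 147% of controls (log2 fold change 0.54, SE 0.13, adjusted p = 0.0145) and 189% of heterozygotes (log2 fold change 0.90, SE 0.13, adjusted p = 0.000929). The call against controls was lost without control 3 (adjusted p = 0.0666) or homozygote 3 (0.0692), as well as with limma without the trend (0.0531), and that against heterozygotes held in all 20 alternatives. The 6 erythroid markers, led by the embryonic globin genes, also rose in homozygotes in both comparisons, 6 of 6, with a summed level from 24834 to 36650 in controls, 19911 to 33842 in heterozygotes and 44432 to 58497 in homozygotes; their part in the *Kcnn4* result was not tested. *Kcnn2* and *Kcnn1*, relatives of small conductance, had estimates of -0.50 and -0.39 and did not pass, and *Kcnn2* passed with limma-voom on whole reads against controls and against heterozygotes (adjusted p = 0.0463 and 0.0401). *Kcnt2*, a sodium-activated channel, had an estimate of -0.03.

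Loss of 1 copy of *Ctcf* with the driver left no channel gene past the threshold. Between heterozygotes and controls 0 of 72 channel genes passed with limma, against 20 of all genes (0.143%, with 0.0928% higher and 0.05% lower), and 0 passed with edgeR's quasi-likelihood test or limma-voom on whole reads. At an unadjusted p under 0.05 there were 6 of 72 channel genes, beside 1032 of all 14011 genes, a similar share. *Scn10a*, *Kcnk1*, *Kcnq1* and *Kcnq5* had higher means in heterozygotes, and *Kcna6* and *Kcnn4* had lower means. *Scn10a* was 2.62, 3.2 and 2.41 in controls and 4.76, 4.1 and 4.73 in heterozygotes (0.64, adjusted p = 0.459, interval 0.20 to 1.08). Groups did not overlap for 5 channel genes in each direction (6.94% each, against 6.93% lower and 7.41% higher among all genes). The median log2 difference of the 72 genes was 0.06.

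Class medians were taken in each library as the difference from the control mean. The pore-forming genes stood at -0.07, -0.06 and 0.16 in controls, 0.04, 0.07 and 0.07 in heterozygotes and -0.19, -0.18 and -0.35 in homozygotes 1, 2 and 3. The homozygous values were below all others, with homozygote 3 lowest and control 3 highest. Auxiliary genes were at 0.01, 0.14 and 0.01 in homozygotes, inside the range of the other groups apart from homozygote 2. The sodium pores had the lowest class value, -0.93 in homozygote 3. Homozygote 3 was the lowest of the 9 libraries for 24 channel genes (33.3%, against 16.6% of all genes) and for 10 of the 14 that fell in either comparison. It was also the library with the most reads and with the highest erythroid and lowest cardiomyocyte marker sums. Of the cardiomyocyte markers, *Myh6*, *Myh7*, *Actn2* and *Ttn* were lowest in homozygote 3. The others were not, with *Tnnt2*, *Actc1*, *Myl7*, *Tnni1* and *Myl4* lowest in control 1 and *Nkx2-5* in homozygote 2. The part of read number and of these markers in the channel results was not tested.

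**Figure D4:**
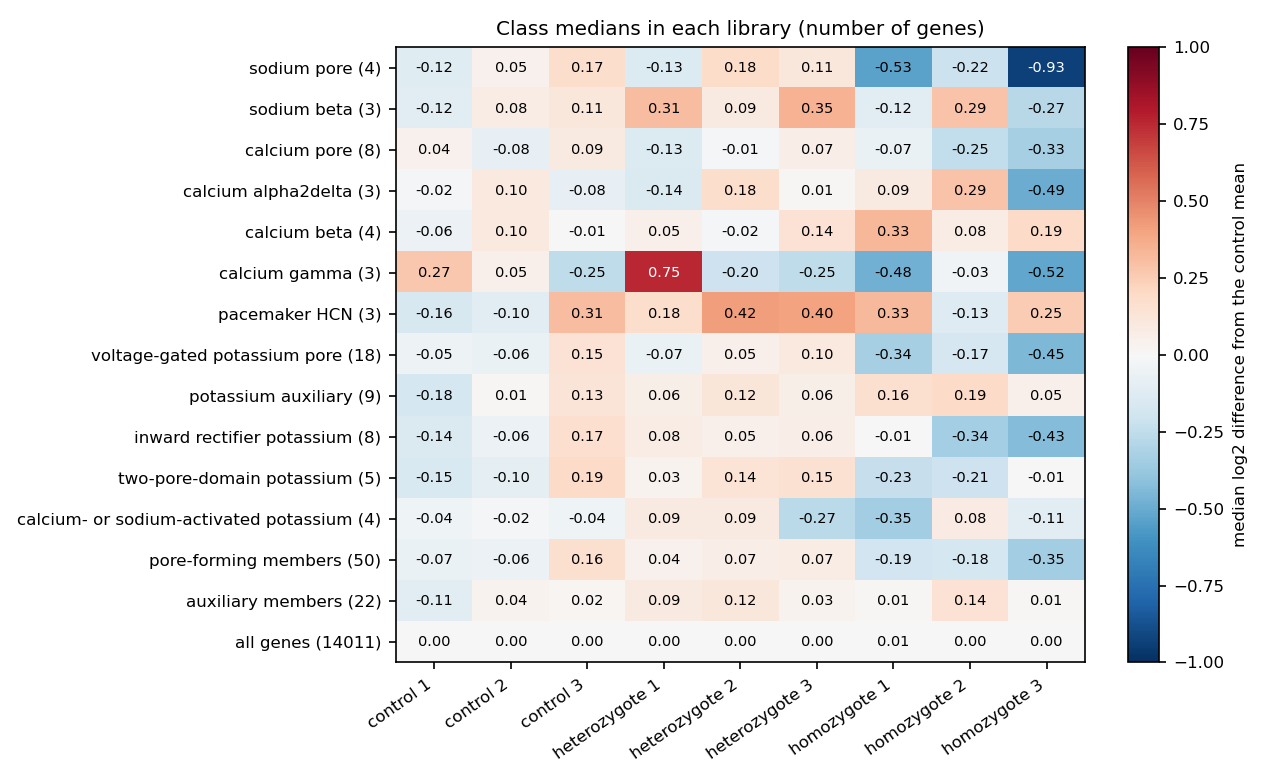
Median log2 difference from the control mean over the genes of each class (rows, number of genes in brackets) in each of the 9 libraries (columns), blue where lower and red where higher. Pore-forming genes are lowest in the 3 homozygous libraries, at -0.19, -0.18 and -0.35, and all genes stay near 0.

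Channel genes are long, with a median exonic length of 4546 bases against 3669 over all genes, and 15 of 72 lie among the longest 10% of genes. In homozygotes long transcripts were lower across the whole table, with a median log2 fold change against controls of 0.17 in the shortest 10% of genes and -0.16 in the longest 10%. After this trend was removed in each library, 11 channel genes passed against controls, beside 1538 of all genes, and 14 against heterozygotes, beside 1576. *Cacnb3*, *Kcna6* and *Kcnj3* then missed the threshold against controls (adjusted p = 0.0651, 0.0699 and 0.0555). Their log2 fold changes were 0.37, -0.71 and -0.50 after the removal and 0.39, -0.78 and -0.55 before it. The median of the sodium pores moved from -0.71 to -0.60, that of the voltage-gated potassium pores from -0.36 to -0.22 and that of the calcium pores from -0.17 to -0.03.

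Genes whose products anchor, regulate or act next to these channels were examined as a list of 30, of which 27 were in the table. Against controls 11 fell (8.03% of all genes) and 3 rose (7.19%), and against heterozygotes 10 fell (6.7%) and 1 rose (6.87%). The list's median log2 fold change against controls was -0.23. Gap junction genes were among those that fell, with *Gja5*, the connexin of fast conduction, at 135 ± 27.3 in controls and 45.2 ± 11.4 in homozygotes (log2 fold change -1.59, SE 0.17, adjusted p = 5.41e-05) and *Gja1*, the ventricular connexin, at 157 ± 8.11 and 75.8 ± 7.78 (log2 fold change -1.05, SE 0.08, adjusted p = 2.95e-06). *Ryr2*, the calcium release channel of the sarcoplasmic reticulum, went from 321 ± 42.1 to 148 ± 29.3 (log2 fold change -1.13, SE 0.15, adjusted p = 0.000391), and *Slc8a1*, *Pln*, *Ank2*, *Akap9*, *Rrad*, *Gem*, *Camk2d* and *Gjc1* also fell. *Fgf13*, which binds sodium channels and shifts their gating, rose from 26.2 ± 1.41 to 78.3 ± 2.08 (log2 fold change 1.56, SE 0.08, adjusted p = 3.97e-08), the largest rise of the list. *Cav3* rose as well (0.42, adjusted p = 0.0107).

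Across the 9 libraries the genes whose log2 values followed *Hcn4* most closely, among the 11128 genes that averaged 5 or more, were *Dna2*, *Galc* and *Ppargc1b* (Pearson r = 0.943, 0.943 and 0.934). These are descriptions, without a test, over libraries that fall into 3 genotypes.

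**Figure D5:**
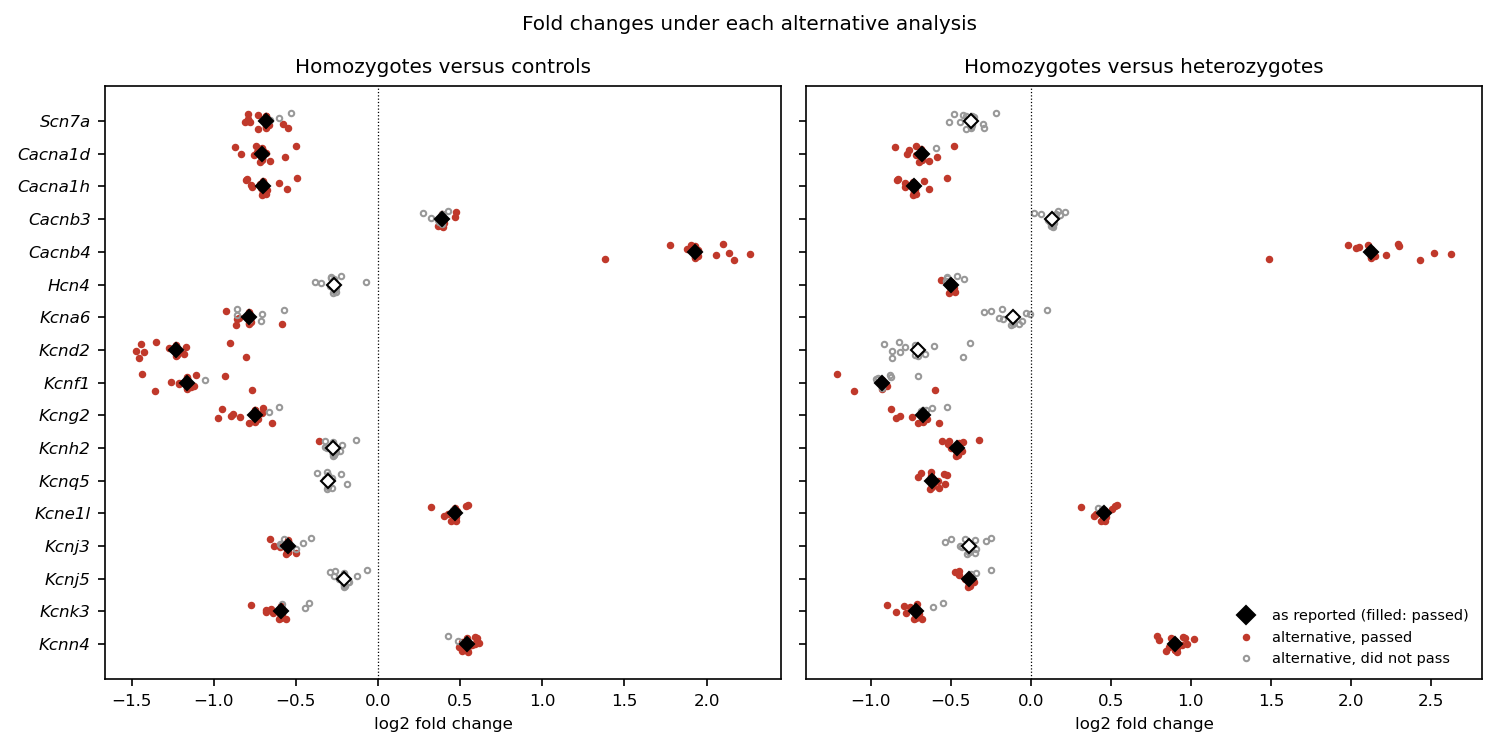
Log2 fold changes of 17 of the 18 channel genes under each alternative analysis (small points, red where the adjusted p was under 0.05 and open where it was not) and as reported (diamonds, filled where passed), for both homozygote comparisons. *Cacna1h* and *Cacnb4* stay red throughout in both panels, while *Cacnb3*, *Kcna6* and *Kcnj3* against controls and *Hcn4* and *Kcnf1* against heterozygotes have many open points.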

How the data were processed

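RNA was taken from 9 pools of 6 E10.5 hearts, 3 per genotype. Per the labels, the authors made polyA libraries, sequenced them on the GAIIx, and used CASAVA 1.8, cutadapt 1.6.1, RSEM 1.20, Bowtie2 0.12.7 and limma; gene models were Ensembl 65 on NCBIM37. The deposited signal was CPM, (reads + 0.5) over an effective library size, and whole reads were recovered for 100% of values (tolerance 0.001). Column names were matched to genotypes by label; control and heterozygote numbers match no sample title, so libraries are numbered as the columns number them. Total reads ran from 4294537 to 11629365, and the read count limits precision of weak genes.

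From these values, log2(value + 0.5) was fitted with limma 3.58.1 (R 4.3.3) over all 9 libraries with mean-variance trend, without covariates. P-values were Benjamini-Hochberg adjusted over 14011 genes in each of 3 comparisons, with a threshold of 0.05. With 3 against 3 pools an exact permutation test cannot go below p = 0.1, so none was used. Named genes were those that passed and, in each class, those with the highest and lowest fold change and the highest level per kb, with genes of the action potential list. Alternatives were other pseudocounts, filters, normalizations, thresholds, tests on whole reads (edgeR 4.0.16, limma-voom), removal of a length trend, a replicate block and leaving out each library. Members and lists were chosen with earlier results of these data known. No near-identical copies of channel genes were found (95% identity over 50% of length). Replicates of a group differed by more than counting error, with chi-square values of 3.33 to 7.35 times their degrees of freedom over 9 pairs. The scripts were tested on simulated data. Promoters came from RefSeq. A few genes are not reported here, though they enter the counts, sums and medians.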

Additional observations from a re-analysis of the deposited data

How the results depend on the processing

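Refits of the named channel genes were counted over the genes, comparisons and alternatives. They kept the side of the threshold in 2643 cases, lost a call in 81 and gained one in 12, and 0 called values changed sign. The 2643 cases include genes and comparisons without a call. Only the 14 calls against controls and 13 against heterozygotes, each refitted in at most 20 alternatives, could be lost. Against controls, 14 channel genes became 9 with limma without the trend and 5 at an adjusted p under 0.01, and ranged from 4 to 14 when 1 library was left out. Against heterozygotes, 13 became 6 and 5 under the same settings, and ranged from 7 to 13. Over all genes these settings gave 1196 and 858 calls in place of 2133 against controls, and 1063 and 722 in place of 1901 against heterozygotes. Without heterozygote 3, 7 channel genes passed against heterozygotes, beside 1223 of all genes. The median log2 fold change of all 72 genes against controls was -0.15 and ranged from -0.2278 to -0.0124 with 1 library left out, the last without control 3. Replicate numbers did not pair the samples (9 same-numbered pairs, r from -0.1077 to 0.0987), and with the replicate block 11, 12 and 0 channel genes passed in the 3 comparisons, beside 1756, 1553 and 15 of all genes. The calls of *Cacnb3*, *Kcna6* and *Kcnj3* against controls and of *Kcnj5* against heterozygotes were lost with it (adjusted p = 0.0696, 0.0531, 0.0544 and 0.0572). The cause of these changes was not tested. Of class medians, 230 moved by less than the spread between replicates and 9 by more. With edgeR 14 channel genes passed against controls (10 lower), beside 2212 of all genes, and with limma-voom 15 (12 lower), beside 2335. Depth limits the weak genes, since the median channel gene had 16.5 to 44.5 reads per library.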

Other observations

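Markers of other cells of the heart were measured beside the channel genes. Of 6 epicardial markers, *Wt1*, *Tbx18*, *Upk3b* and *Upk1b* rose in homozygotes against both other groups, and the summed level of the list ran from 411 to 473 in controls, 439 to 464 in heterozygotes and 572 to 639 in homozygotes. *Postn* and *Vcan* of the cushion mesenchyme list fell in both comparisons. Of the endothelial list, *Emcn* rose and *Kdr* and *Npr3* fell against controls. *Cnn1* and *Tagln* of the smooth muscle list fell against controls, and 0 macrophage markers passed in either comparison.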
